A study of Mus musculus with 2 samples.

Results

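The interferon gamma production axis was taken as 10 genes of the 55401 in the deposited matrix, chosen by their symbols: Ifng, Ifngr1, Ifngr2, Il12b, Il12rb1, Il12rb2, Il18, Il18r1, Stat4 and Tbx21. Their UMIs (unique molecular identifiers, one per captured transcript) were followed across immune cell classes gated by markers in mouse lung. The labels describe 1 sample of Siah1a/2 KO lungs and 1 sample of WT lungs, both from mice given urethane, a carcinogen that induces lung tumours, and killed 7 weeks after the first treatment. Siah1a and Siah2 encode ubiquitin ligases, and the alleles, any Cre line, the strain and the number of mice pooled are not given in the sources used here. Live cells bearing CD45, the surface protein of white blood cells, were sorted and profiled by droplet 3′ RNA sequencing. Both samples came joined in 1 matrix whose barcodes end in 1 or 2. No label or header ties an ending to a genotype, so the text speaks of library 2 and library 1, gives neither a genotype, and has no replicate check for any difference.

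Interferon gamma is the macrophage-activating cytokine of NK cells and T cells. Dendritic cells and macrophages make interleukin 12, a heterodimer whose p40 chain is encoded by Il12b, and interleukin 18. Interleukin 12 acts through the receptor chains of Il12rb1 and Il12rb2 on the transcription factor STAT4, interleukin 18 acts through the receptor whose binding chain is Il18r1, and both inputs, together with T-bet, the product of Tbx21, drive transcription of Ifng. The secreted dimer binds IFNGR1 and recruits IFNGR2 on target cells, which induces chemokines, guanylate-binding proteins and MHC genes.

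The promoters of the secreted products at the 2 ends of the axis, Ifng and Il12b, are shown because most of the results turn on which cells transcribed them. Both sequences are the 250 bases before the annotated start, on the plus strand of RefSeq's GRCm38.p6, at chr10:118440796-118441045 for Ifng and chr11:44399813-44400062 for Il12b, 5′ to 3′. Capitals mark matches to the STAT motif TTCNNNGAA, the T-box motif GTGTGA or the TATA motif TATAAA on either strand, with no overlap among the matches found.
Ifng: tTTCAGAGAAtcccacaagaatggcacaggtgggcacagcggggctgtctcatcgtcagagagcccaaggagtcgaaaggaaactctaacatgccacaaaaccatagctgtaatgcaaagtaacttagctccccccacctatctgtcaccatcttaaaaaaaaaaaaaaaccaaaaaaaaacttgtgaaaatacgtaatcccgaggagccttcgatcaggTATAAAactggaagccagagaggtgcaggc
Il12b: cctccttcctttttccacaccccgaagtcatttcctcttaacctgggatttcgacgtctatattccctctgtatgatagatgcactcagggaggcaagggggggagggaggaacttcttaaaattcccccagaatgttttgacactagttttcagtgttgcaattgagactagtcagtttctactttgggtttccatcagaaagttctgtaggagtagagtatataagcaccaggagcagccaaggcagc
The Ifng window held TTCAGAGAA at positions -249 to -241 from the start and TATAAA at -30 to -25, and no GTGTGA. The Il12b window held none of these letters. Of 32851 mouse promoter windows of this length, 7.02% held the STAT motif, 12.3% the T-box motif and 12.4% the TATA motif. A match is a description of the letters and not of binding.

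On GRCm38, with gene models of GENCODE M21, Ifng lies at chr10:118441046-118445892 on the plus strand and Ifngr1 at chr10:19591949-19610229 on the plus strand. Ifngr2 lies at chr16:91547072-91565623 (plus), Il12b at chr11:44400063-44414033 (plus) and Tbx21 at chr11:97098071-97115331 (minus). Il12rb1 lies at chr8:70808449-70821424 (plus), Il12rb2 at chr6:67291318-67376188 (minus) and Il18 at chr9:50554827-50581840 (plus). Il18r1 lies at chr1:40465552-40500854 and Stat4 at chr1:51987148-52107189, both on the plus strand. All 10 are protein-coding genes.

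Library 2 held 6479 barcodes and 59459790 UMIs, against 8522 barcodes and 86227008 UMIs in library 1, and 6113 barcodes of library 2 and 8066 of library 1 were kept, at a median of 7875 UMIs in library 2 and 8661 UMIs in library 1. The libraries shared 11 barcode sequences. The 16 classes compared held between 52 and 1161 cells in library 2 and between 55 and 1334 cells in library 1, and their names stand for marker gates, since no annotation of the cells was used. The leading genes of the classes included genes of their own gates, which the gating itself brings about. These were C1qb in macrophages, Fscn1 in migratory dendritic cells (DCs) and Ncr1 in NK cells. Leading genes outside the gates included Retnla in macrophages, Tbc1d4 in migratory DCs and Gzma in NK cells. The labelled tissue is lung, yet the alveolar macrophage markers Ear1, Fabp1 and Car4 had 0 UMIs in both libraries, and Marco had 0 UMIs in library 2 and 5 UMIs in library 1. Of the other markers on that list, Siglecf had 69 UMIs in library 2 and 55 UMIs in library 1. Ear2, also on it, was among the leading genes of non-classical monocytes. Lyz2, a gene of nearly all lung myeloid cells, had 426 UMIs in library 2 and 617 UMIs in library 1. Barcodes passing the gates of more than 1 lineage, 349 in library 2 and 460 in library 1, were set aside as mixed, at a median depth of 19567 UMIs in library 2 and 20761 UMIs in library 1.

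Levels are UMIs of a gene per 1000000 UMIs of its class (CPM), with exact 95% Poisson intervals. Differences are log2 ratios of CPM, library 2 over library 1, with exact 95% binomial intervals, given where both libraries together held at least 50 UMIs. A gene was called higher or lower in library 2 where the ratio passed 1.5 times and the interval excluded 1. All intervals cover counting error only, and cells are not replicates. Depth was enough to give a ratio for 92 pairs of a gene and a class, of which 11 were called higher and 2 lower. Over all genes, depending on the class, 1.88% to 9.49% were called higher and 2.36% to 5.21% lower. Of the 13 calls, 2 held under every alternative processing run on them, as given at the end.

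**Figure D1:**
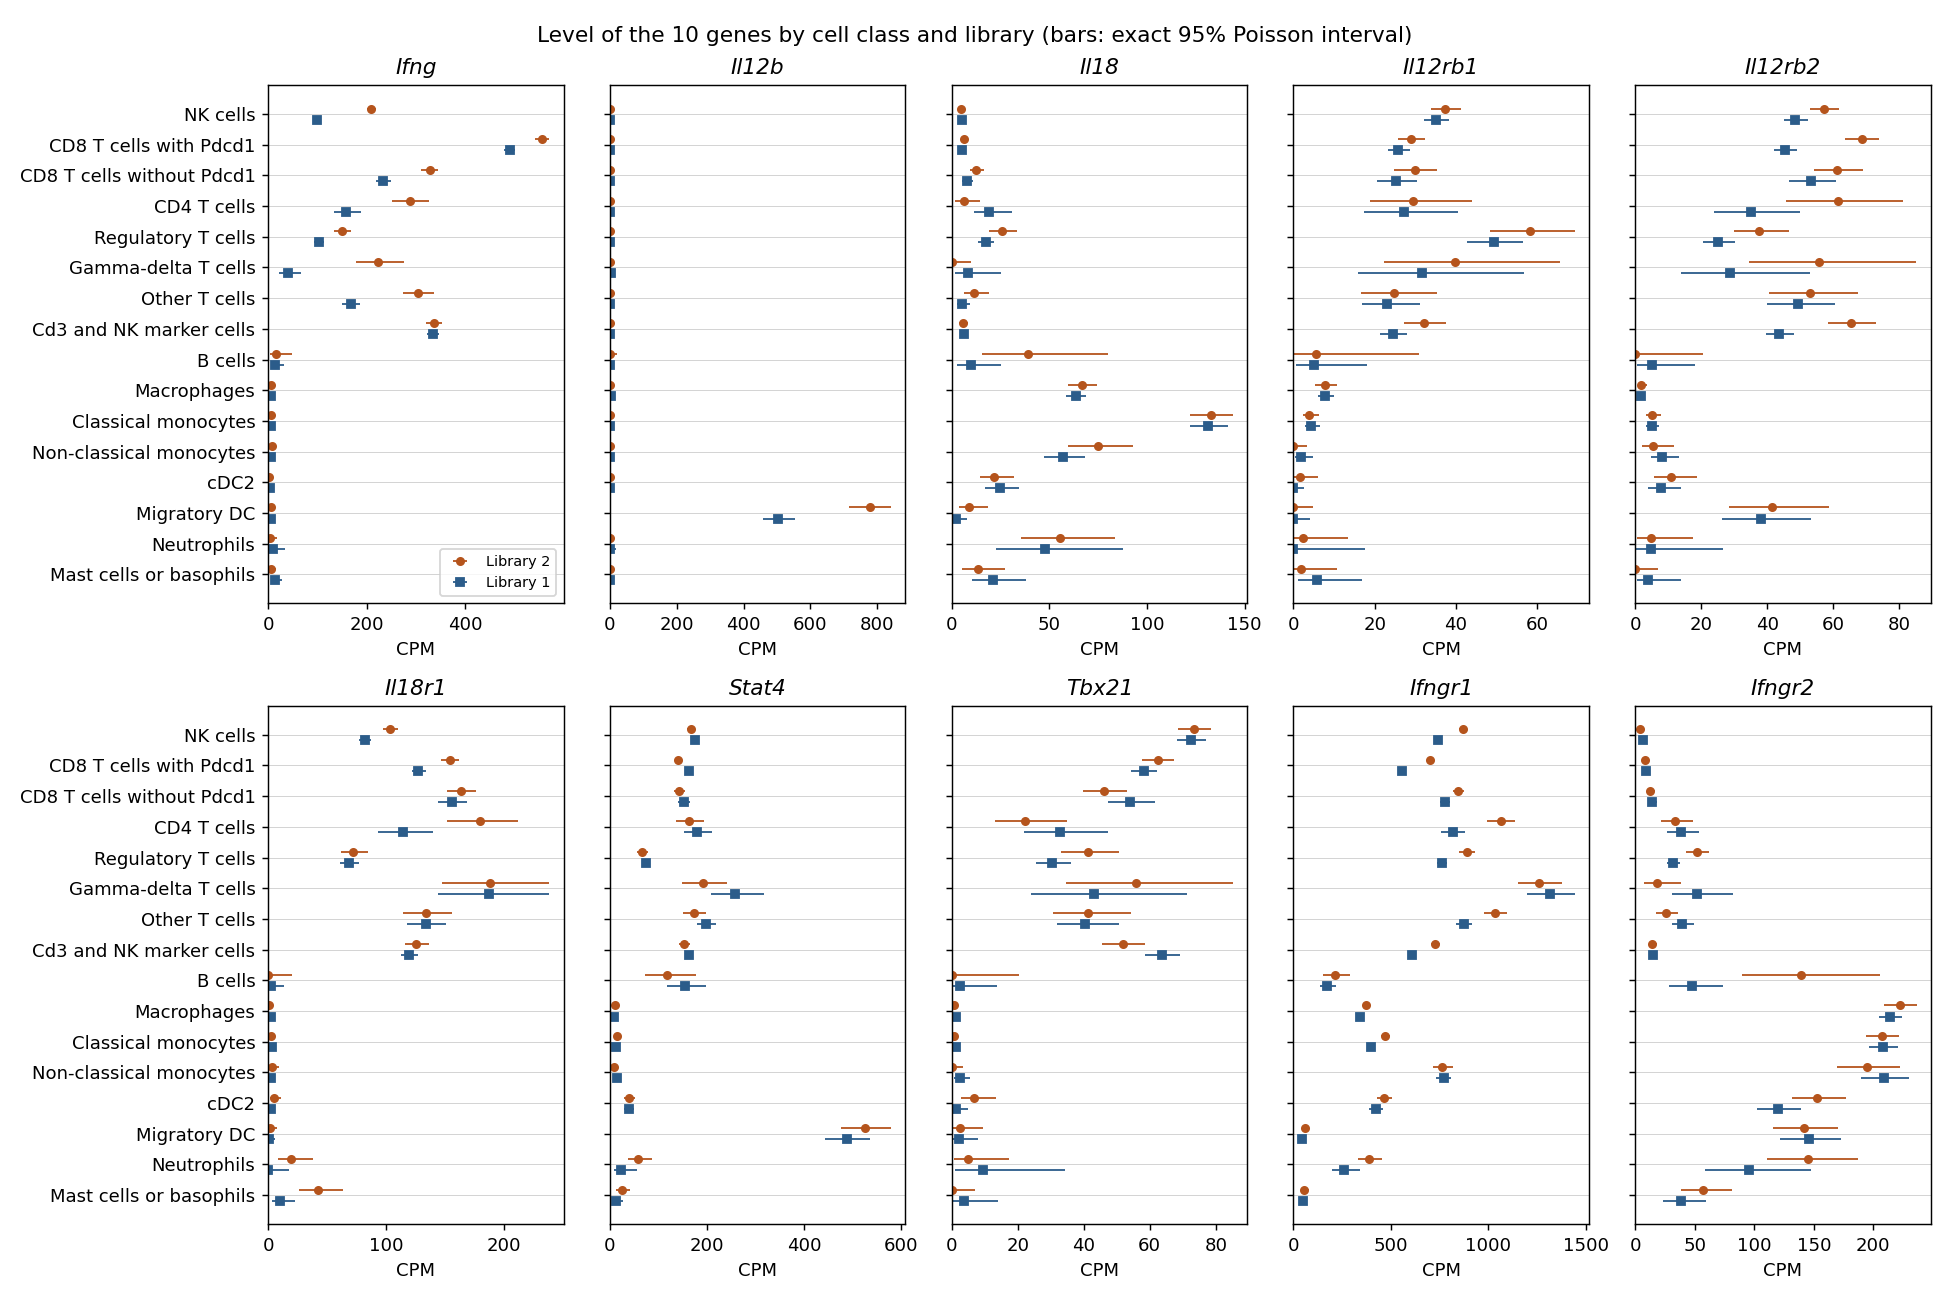
Level (CPM, linear axis from 0) of each of the 10 genes in the 16 cell classes, library 2 as circles above library 1 as squares, with exact 95% Poisson intervals of counting error. Il12b stands at 777 CPM in library 2 and 504 CPM in library 1 in migratory DCs and near 0 elsewhere, while Ifng is highest in CD8 T cells with Pdcd1.

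Il12b, the p40 chain, had by far its highest level in migratory DCs, the Ccr7- and Fscn1-expressing cells that carry antigen to lymph nodes. Its level there was 777 CPM (716 to 842, 599 UMIs, 60 cells) in library 2 and 504 CPM (459 to 553, 450 UMIs, 67 cells) in library 1. No UMI of Il12b was found in cDC2 cells or classical monocytes of either library, and in macrophages the counts were 4 UMIs in 2 cells of library 2 and 42 UMIs in 10 cells of library 1. Migratory DCs held 83.9% of all Il12b UMIs in kept cells of library 2 but 42.7% in library 1, where mixed barcodes held another 47.9%, against 14.01% in library 2.

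Within migratory DCs, Il12b was unevenly spread. At least 1 UMI was found in 56.7% of cells in library 2 and 47.8% in library 1, and at least 10 UMIs in 28.3% in library 2 and 17.9% in library 1. In cells thinned to 3000 UMIs, the share with a UMI was 45.6% in library 2 and 32.3% in library 1. The highest cell held 111 UMIs in library 2 and 67 UMIs in library 1. NK cells and T cells, which should lack the gene, held at most 4 UMIs per class in library 2 and at most 5 UMIs per class in library 1.

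Of 5 genes of the axis with a ratio in migratory DCs, 1 was called higher in library 2, where 6.97% of all 3800 genes were, and 0 were called lower, against 4.37% of all genes. The called gene was Il12b, at a log2 ratio of 0.62 (0.44 to 0.80). The call did not hold without the cell of most Il12b UMIs in each library, which left a log2 ratio of 0.51 (0.31 to 0.71), where 6.68% of all genes were higher. It held under 5 of 10 alternatives, and was also lost with stricter gates, with thinning to 3000 UMIs and with ratios centred on their median. Mixed barcodes that also pass the migratory DC gate, 16 in library 2 and 17 in library 1, held 95 Il12b UMIs in library 2 and 472 in library 1, of which the highest barcode held 70 in library 2 and 221 in library 1. Adding them turned the ratio round, to -0.22. Most of these barcodes, 12 in library 2 and 13 in library 1, also passed the T cell gate, and their median depth was 20146.5 UMIs in library 2 and 21272 UMIs in library 1. Their part in the Il12b levels was not tested.

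The partner chains of p40 were not detectable beside it. Il12a, which encodes the p35 chain of interleukin 12, and Il23a, which encodes the p19 chain of interleukin 23, each had 0 UMIs in migratory DCs of both libraries, which allows levels of up to 3.89 CPM in library 2 and 3.36 CPM in library 1. Elsewhere Il12a reached 22.3 CPM (4 UMIs) in library 2 and 12.5 CPM (5 UMIs) in library 1 in B cells. Il23a reached 38.8 CPM in library 2 and 28.6 CPM in library 1 in neutrophils.

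Il18, the interleukin 1 family cytokine that is stored as a precursor, had a broad myeloid pattern. It was highest in classical monocytes, at 133 CPM (122 to 144) in library 2 and 131 CPM (122 to 142) in library 1, and this was the only neighbouring pair in its order of classes that stood apart, that is, with the same order and no overlap of intervals in both libraries. Non-classical monocytes followed at 74.9 CPM in library 2 and 57.0 CPM in library 1, macrophages at 66.6 CPM in library 2 and 63.5 CPM in library 1, and neutrophils at 55.8 CPM in library 2 and 47.7 CPM in library 1. A UMI was found in 55.0% of classical monocytes of library 2 and 52.6% of library 1, and after thinning in 28.8% in library 2 and 28.2% in library 1, against 1.03% of thinned NK cells in library 2 and 1.29% in library 1.

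The Il18 level of the classes that hold most of it did not differ between the libraries beyond counting error. The log2 ratio was 0.01 (-0.15 to 0.17) in classical monocytes and 0.07 (-0.14 to 0.27) in macrophages. None of the 5 genes with a ratio in classical monocytes was called in either direction, where 2.26% of all genes were higher and 3.22% lower. None of the 6 in macrophages was called, where 2.62% were higher and 3.38% lower. Il18 was called higher in library 2 only in CD8 T cells without Pdcd1, at 12.6 CPM (54 UMIs) in library 2 and 8.02 CPM (34 UMIs) in library 1 and a log2 ratio of 0.64 (0.00 to 1.31).

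Other genes of ligand supply were given from a list. Il18bp, the soluble decoy of interleukin 18, stood at 93.3 CPM in library 2 and 79.1 CPM in library 1 in macrophages and at 50.2 CPM in library 2 and 44.5 CPM in library 1 in classical monocytes. Il15, which sustains NK and memory CD8 T cells, stood at 94.7 CPM in library 2 and 72.8 CPM in library 1 in migratory DCs. Of 8 list genes with a ratio, 0 were called in macrophages, where 2.62% of all genes were higher and 3.38% lower. In classical monocytes 0 of 8 were called, where 2.26% of all genes were higher and 3.22% lower. In migratory DCs 0 of 6 were higher and 1 was lower, where 6.97% of all genes were higher and 4.37% lower. The lower one was Ebi3, the shared chain of interleukins 27 and 35, at 32.4 CPM in library 2 and 63.9 CPM in library 1.

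Il12rb1, the chain that interleukins 12 and 23 share, was a lymphocyte transcript with its highest level in regulatory T cells. These held 58.2 CPM (48.5 to 69.2) in library 2 and 49.3 CPM (42.8 to 56.5) in library 1, apart from the next class in both libraries. NK cells had 37.4 CPM in library 2 and 35.1 CPM in library 1, and CD8 T cells with Pdcd1 had 29.0 CPM in library 2 and 25.8 CPM in library 1. Macrophages had 7.70 CPM in library 2 and 7.84 CPM in library 1, and migratory DCs had 0 UMIs in both. None of its 7 ratios was called, and they ran from -0.01 to 0.39 on the log2 scale.

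Il12rb2, the signalling chain of the interleukin 12 receptor that recruits STAT4, was more even across NK and T cell classes. CD8 T cells without Pdcd1 had 61.3 CPM in library 2 and 53.3 CPM in library 1, CD8 T cells with Pdcd1 had 68.6 CPM in library 2 and 45.5 CPM in library 1, and NK cells had 57.2 CPM in library 2 and 48.5 CPM in library 1. Regulatory T cells, the lowest of the T and NK cell classes, had 37.6 CPM in library 2 and 25.02 CPM in library 1, apart from cDC2 cells below them, and B cells had 0 UMIs in library 2 and 2 UMIs in library 1. Migratory DCs, with no Il12rb1 UMI, nonetheless held Il12rb2 at 41.5 CPM (32 UMIs) in library 2 and 38.1 CPM (34 UMIs) in library 1. Macrophages had 1.93 CPM in library 2 and 1.90 CPM in library 1.

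All 8 ratios of Il12rb2 were above 0 on the log2 scale, from 0.10 to 0.80, and 3 were called higher in library 2. The median over all genes was also above 0 in most of the 16 classes, between -0.02 and 0.10. Il12rb2 in CD8 T cells with Pdcd1 had a log2 ratio of 0.59 (0.44 to 0.75), the only call among 9 genes of the axis there, where 3.11% of all genes were higher and 2.88% lower. In regulatory T cells it was 0.59 (0.15 to 1.02), 1 of 2 calls among 9 genes, where 4.14% of all genes were higher and 3.1% lower. In CD4 T cells it was 0.80 (0.13 to 1.502) on 50 UMIs in library 2 and 31 UMIs in library 1. These folds lie at the threshold: 1.51 in CD8 T cells with Pdcd1, 1.503 in regulatory T cells and, just below it and not called, 1.49 in cells with both Cd3 and NK markers. Thinning to 3000 UMIs gave a log2 ratio of 0.46 in CD8 T cells with Pdcd1 and ended the call, and 19.1% of thinned cells in library 2 and 13.6% in library 1 held a UMI.

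Both interleukin 12 receptor chains were seldom found in the same thinned cell. The share was 2.33% (25 of 1071) in library 2 and 1.61% (20 of 1240) in library 1 among NK cells, and among CD8 T cells with Pdcd1 1.84% in library 2 and 1.22% in library 1. At full depth 11.9% of NK cells in library 2 and 11.7% in library 1 held a UMI of both.

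Il18r1, the ligand-binding chain of the interleukin 18 receptor, was highest in T cells. Gamma-delta T cells had 188 CPM in library 2 and 187 CPM in library 1, CD8 T cells without Pdcd1 had 163 CPM in library 2 and 156 CPM in library 1, and CD8 T cells with Pdcd1 had 154 CPM in library 2 and 127 CPM in library 1. NK cells had 104 CPM (97.7 to 110) in library 2 and 82.0 CPM (77.4 to 86.8) in library 1, below all these T cell classes and above regulatory T cells at 72.4 CPM in library 2 and 68.6 CPM in library 1. Mast cells or basophils had 42.0 CPM (22 UMIs) in library 2 and 9.68 CPM (5 UMIs) in library 1, too few for a ratio, and B cells had 0 UMIs in library 2 and 1 UMI in library 1.

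Of 8 Il18r1 ratios, 1 was called, in CD4 T cells, where the level was 180 CPM in library 2 and 115 CPM in library 1. In that class 3 of 6 genes of the axis were called higher, Ifng, Il12rb2 and Il18r1, where 2.85% of all genes were, and 0 were lower, where 4.11% were. The median log2 ratio of the 6 was 0.51, beside -0.01 over all 4701 genes. The class holds 144 cells in library 2 and 151 cells in library 1. Without cells over 2 times the class median depth none of the 3 calls held, and at 3000 UMIs per cell the Il18r1 log2 ratio was 0.37.

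Il18rap, the accessory chain that completes the interleukin 18 receptor, was ordered otherwise among lymphocytes, with 149 CPM in library 2 and 120 CPM in library 1 in CD8 T cells with Pdcd1 and 128 CPM in library 2 and 105 CPM in library 1 in NK cells. Gamma-delta T cells, the highest for Il18r1, had 92.9 CPM of Il18rap in library 2 and 66.2 CPM in library 1, and CD8 T cells without Pdcd1 had 107 CPM in library 2 and 99.6 CPM in library 1. It was also present in neutrophils, at 175 CPM in library 2 and 115 CPM in library 1, where Il18r1 had 8 UMIs in library 2 and 0 UMIs in library 1. Both chains were found in 16.3% of thinned CD8 T cells with Pdcd1 in library 2 and 11.5% in library 1, and in 11.1% of thinned NK cells in library 2 and 8.55% in library 1. Of 10 genes with a ratio on the list of receptor chains and kinases, 0 were called in NK cells and 0 in CD8 T cells with Pdcd1. Of all genes, 1.88% were higher and 2.88% lower in NK cells. In CD8 T cells with Pdcd1 3.11% of all genes were higher and 2.88% lower.

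Stat4, the transcription factor that carries the interleukin 12 signal, was highest outside the lymphocytes, in migratory DCs. Its level there was 527 CPM (477 to 580) in library 2 and 489 CPM (444 to 537) in library 1, apart from every other class, and a UMI was found in 90.0% of the cells in library 2 and 88.1% in library 1. Gamma-delta T cells had 191 CPM in library 2 and 259 CPM in library 1, NK cells 167 CPM in library 2 and 176 CPM in library 1, and CD8 T cells with Pdcd1 141 CPM in library 2 and 163 CPM in library 1. Regulatory T cells had 66.4 CPM in library 2 and 74.3 CPM in library 1, and macrophages 11.1 CPM in library 2 and 7.72 CPM in library 1. No other neighbouring pair in this order stood apart. None of the 13 ratios was called, and they ran from -0.44 to 0.53.

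Among migratory DCs, those with an Il12b UMI had 590.1 CPM of Stat4 in library 2 and 490 CPM in library 1, and those without had 421 CPM in library 2 and 487 CPM in library 1. The intervals of these subsets overlapped in library 1 and did not in library 2, where they were 523 to 663 CPM with an Il12b UMI and 350 to 503 CPM without. Both subsets lay above every other class in Stat4 level. The split was chosen after the data were seen. Splitting at 1 UMI can also sort cells by depth, and the part of depth was not tested.

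Tbx21, which encodes T-bet, was highest in NK cells, at 73.5 CPM (68.5 to 78.6) in library 2 and 72.4 CPM (68.1 to 77.0) in library 1, apart from the next class. CD8 T cells with Pdcd1 had 62.4 CPM in library 2 and 58.2 CPM in library 1, CD8 T cells without Pdcd1 had 46.1 CPM in library 2 and 54.0 CPM in library 1, and CD4 T cells had 22.2 CPM in library 2 and 32.9 CPM in library 1. Myeloid classes had no more than 6.76 CPM in library 2 and 9.54 CPM in library 1. None of the 6 ratios was called, and in NK cells the log2 ratio was 0.02. Eomes, the related T-box factor, stood at 173 CPM in library 2 and 178 CPM in library 1 in NK cells and at 19.3 CPM in library 2 and 16.6 CPM in library 1 in CD8 T cells with Pdcd1. Of 14 transcription factors listed as acting at Ifng, 0 were called in NK cells, where 1.88% of all genes were higher and 2.88% lower. In CD8 T cells with Pdcd1 0 were called as well, where 3.11% of all genes were higher and 2.88% lower.

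Ifng itself came from T cells and NK cells. CD8 T cells with a UMI of Pdcd1, the checkpoint receptor of activated and exhausted T cells, had 557 CPM (543 to 571, 5832 UMIs) in library 2 and 490.2 CPM (479 to 502, 6954 UMIs) in library 1. They stood apart from every other class, and held 41.9% of all Ifng UMIs of kept cells in library 2 and 46.0% in library 1. Next came cells with both Cd3 and NK markers at 336 CPM in library 2 and 334 CPM in library 1, and CD8 T cells without Pdcd1 at 328 CPM in library 2 and 234 CPM in library 1.

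Other T cells had 304 CPM of Ifng in library 2 and 168 CPM in library 1, and CD4 T cells had 288 CPM in library 2 and 159 CPM in library 1. NK cells had 209.6 CPM (201 to 218, 2366 UMIs) in library 2 and 100.3 CPM (95.2 to 106, 1456 UMIs) in library 1. Gamma-delta T cells had 223 CPM (84 UMIs) in library 2 and 40.3 CPM (14 UMIs) in library 1, and regulatory T cells had 150.2 CPM in library 2 and 103 CPM in library 1. The order of classes below the CD8 T cells thus differed between the libraries, and of 15 neighbouring pairs 3 stood apart, including regulatory T cells from the classes below them.

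Outside these classes Ifng was at a low level. B cells, which should lack it, had 16.7 CPM (3 UMIs) in library 2 and 14.97 CPM (6 UMIs) in library 1, and macrophages had 5.56 CPM in library 2 and 6.04 CPM in library 1. After thinning, 52.9% of CD8 T cells with Pdcd1 in library 2 and 52.6% in library 1 held an Ifng UMI, against 22.7% of NK cells in library 2 and 21.6% in library 1, 14.2% of regulatory T cells in library 2 and 14.1% in library 1, and 3.12% of B cells in library 2 and 4.05% in library 1. Macrophages were at 1.60% in library 2 and 1.31% in library 1, so a share of this size is not read as expression by a class. The source of these UMIs was not tested.

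Among CD8 T cells with Pdcd1 the Ifng level differed with other markers. Cells with a UMI of Havcr2, the checkpoint receptor TIM-3, had 676 CPM in library 2 and 583 CPM in library 1, and cells at 0 had 377 CPM in library 2 and 343 CPM in library 1. Cells with Tcf7, a factor of stem-like T cells, and no Havcr2 had 321 CPM (51 cells) in library 2 and 147 CPM (57 cells) in library 1. These splits were chosen after the data were seen, and cells with a Havcr2 UMI were deeper, at a median of 8213 UMIs in library 2 and 9967 UMIs in library 1, against 6665 UMIs in library 2 and 7514 UMIs in library 1 in cells at 0.

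Of 10 Ifng ratios, 4 were called higher in library 2 and 0 lower. In NK cells 1 of 9 genes of the axis was higher, where 1.88% of all genes were, and 1 was lower, where 2.88% were. The higher one was Ifng, at a log2 ratio of 1.06 (0.97 to 1.16). In gamma-delta T cells 1 of 4 genes was higher, where 6.49% of all genes were, and 0 lower, where 2.67% were. This was Ifng, at 2.43 (1.64 to 3.40). In other T cells Ifng was the 1 of 8 that was higher, at 0.86 (0.64 to 1.08), where 2.78% of all genes were higher and 3.24% lower, and in CD4 T cells its ratio was 0.86 (0.55 to 1.17). The Ifng log2 ratio was 0.18 (0.13 to 0.23) in CD8 T cells with Pdcd1 and in cells with both Cd3 and NK markers 0.01 (-0.08 to 0.10), neither called. In regulatory T cells it was 0.54 (0.33 to 0.75), also not called. None of 9 genes of the axis was called in cells with both Cd3 and NK markers, where 2.59% of all genes were higher and 2.49% lower.

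The NK cell call rests on 1 barcode. A cell of library 2 held 906 of the 2366 Ifng UMIs of its class, 38.3%, while the next highest NK cell of that library held 72 and the highest of library 1 held 67 of 1456, or 4.60%. Without the highest cell of each library the log2 ratio was 0.44 (0.33 to 0.55), a fold of 1.36, and was not called, where 1.81% of all genes were higher under the same rule. Of 3209 genes with at least 500 UMIs in NK cells of library 2, none had a larger share of its UMIs in 1 cell, and the median share was 0.831%.

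That barcode had 36227 UMIs and 5390 genes, and Ifng ranked 1 among all its genes, at 2.50% of its UMIs. It held 24 UMIs of NK markers, with 6 of Ncr1, 6 of Klra8, 7 of Klre1 and 5 of Klri2, and 0 UMIs of Klrb1c and Klra4, which are among the leading genes of the NK class. The Cd3 genes, Cd8a and C1qa were at 0 UMIs. Effector transcripts in it were Gzmb with 563 UMIs, Spp1 with 327, Ccl3 with 314, Xcl1 with 258 and Ccl1 with 243. Its own axis transcripts were few, with 3 UMIs of Stat4, 1 of Tbx21, 1 of Ifngr1, 1 of Il12b, which NK cells should lack, and 0 of Ifngr2, Il12rb1, Il12rb2, Il18 and Il18r1. Tnf and Csf2 were at 0.

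The share of NK cells with at least 1 Ifng UMI was 39.7% in library 2 and 42.9% in library 1, the opposite order to the summed level, so no order is read from it. The share with at least 5 UMIs was 7.21% in library 2 and 5.75% in library 1, and with at least 10 UMIs 2.70% in library 2 and 1.65% in library 1. The 10% of NK cells with the most Ifng UMIs held 78.8% of them in library 2 and 57.2% in library 1. In CD8 T cells with Pdcd1, where a UMI was found in 72.7% of cells in library 2 and 76.2% in library 1, that share was 55.5% in library 2 and 54.5% in library 1.

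Single cells held a large part of the Ifng UMIs behind the other calls as well, though only the call in CD4 T cells was lost without them. In CD4 T cells the highest cell held 126 of 234 Ifng UMIs in library 2 and 56 of 140 in library 1, and without them the log2 ratio was 0.47 (0.05 to 0.90), not called, where 2.68% of all genes were higher. In other T cells the highest cell held 103 of 368 UMIs in library 2 and 55 of 319 in library 1, and without them the ratio was 0.65 and still called, where 2.42% of all genes were higher. In gamma-delta T cells the highest cell held 32 of 84 UMIs in library 2 and 7 of 14 in library 1, and without them the ratio was 2.70 (1.64 to 4.17), called, where 6.9% of all genes were higher. A UMI was found in 17 of 59 gamma-delta T cells in library 2 and in 5 of 55 in library 1, and after thinning in 20.3% in library 2 and 1.89% in library 1. The thinned share in library 1 was near that of macrophages, which is not read as expression. With stricter gates the gamma-delta ratio was 1.21, still called. In these cells the myeloid transcripts summed to 69.0 CPM in library 2 and 222 CPM in library 1. Of 9 genes of tissue handling with a ratio 1 was higher and 4 were lower, where 6.49% of all genes were higher and 2.67% lower.

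**Figure D2:**
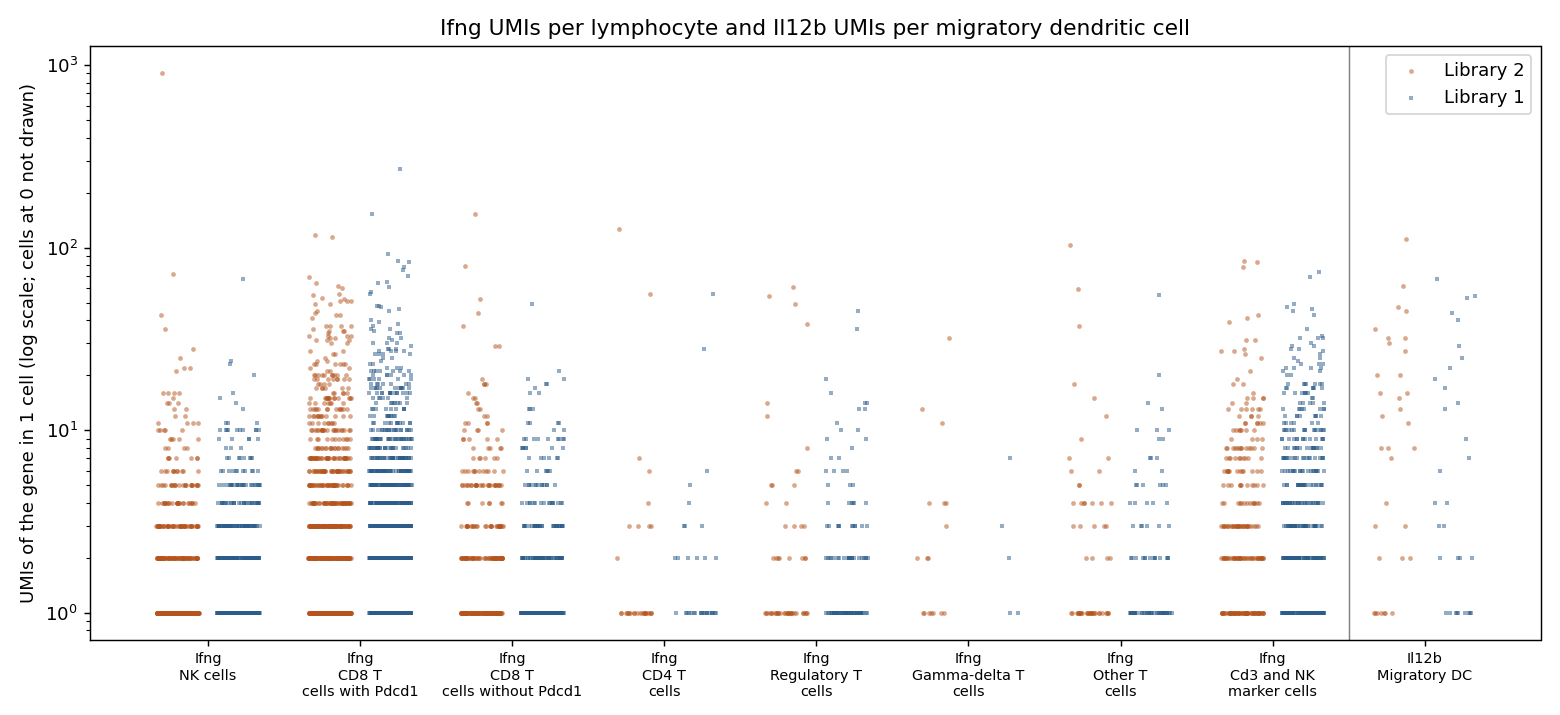
Ifng UMIs per cell in 8 lymphocyte classes and Il12b UMIs per cell in migratory DCs (log axis, cells at 0 not drawn), library 2 left of library 1 in each class, 1 point per cell. The single NK cell of library 2 at 906 UMIs stands above all others, the next NK cell of that library being at 72.

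**Figure D3:**
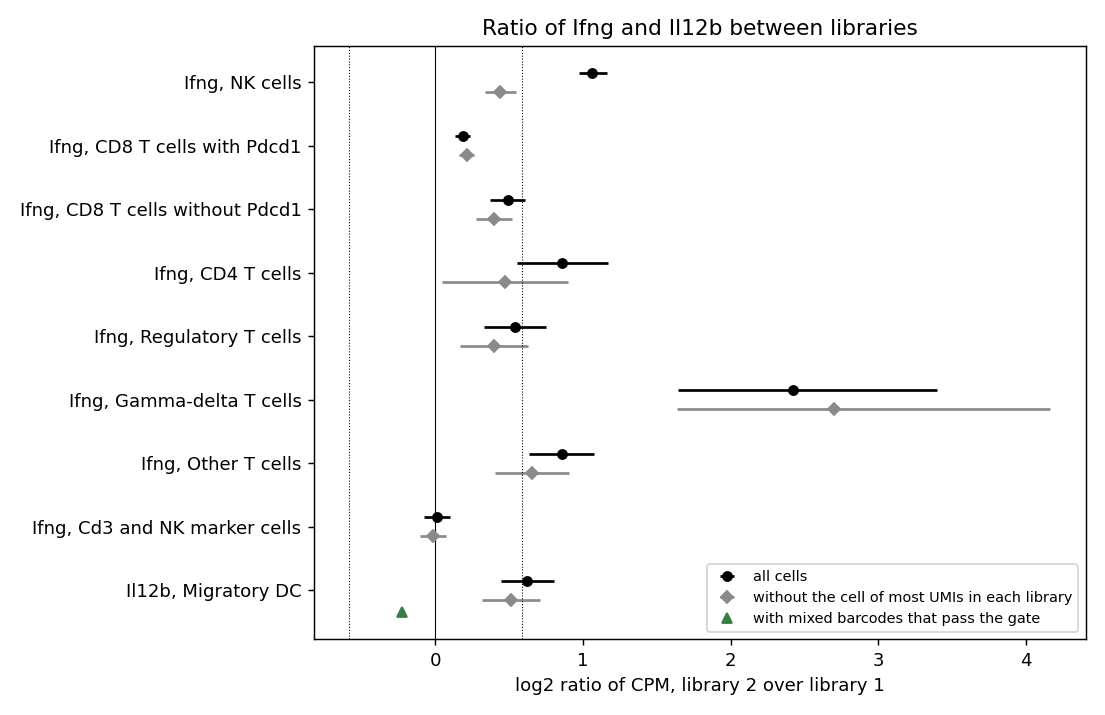
Log2 ratio of CPM, library 2 over library 1, for Ifng in 8 classes and Il12b in migratory DCs, with exact 95% intervals of counting error, for all cells (black), without the cell of most UMIs in each library (grey) and, for Il12b, with mixed barcodes that pass the gate (triangle). Dotted lines mark 1.5 times. The NK cell ratio is 1.06 with and 0.44 without the highest cells, and the Il12b ratio becomes -0.22 with the mixed barcodes.

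NK cells differed in these genes along their granzyme content. Cells with at least 5 UMIs of Gzmd to Gzmg, granzymes of strongly activated NK cells, numbered 189 in library 2 and 198 in library 1. Their Ifng level was 57.1 CPM in library 2 and 43.2 CPM in library 1, against 304 CPM in library 2 and 121 CPM in library 1 in cells at 0. Il18r1 stood at 37.4 CPM in library 2 and 28.2 CPM in library 1 in the cells with these granzymes, against 134 CPM in library 2 and 107 CPM in library 1 in cells at 0, and Il12rb2 at 33.6 CPM in library 2 and 33.4 CPM in library 1, against 71.4 CPM in library 2 and 53.5 CPM in library 1. The barcode with 906 Ifng UMIs lies among the cells at 0. In an alternative chosen after seeing the data, which leaves out the highest NK cell of each library, the Ifng level of the cells at 0 was 169 CPM (159 to 179) in library 2 and 121 CPM (113 to 129) in library 1. The intervals of the subsets did not overlap in either library for these 3 genes, for Ifng also without that barcode. Tbx21 levels were closer, at 62.5 CPM in library 2 and 68.6 CPM in library 1 against 78.7 CPM in library 2 and 74.6 CPM in library 1. The split was chosen after the data were seen, and the cells with granzymes were deeper, at a median of 14128 UMIs in library 2 and 15438.5 UMIs in library 1, against 7387 UMIs in library 2 and 8807 UMIs in library 1.

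Myeloid transcripts differed between the libraries in lymphocytes, mostly but not only downward in library 2. Their part in the ratios was not tested. In NK cells 4 of 6 such genes with a ratio were lower in library 2, C1qa, C1qb, C1qc and Apoe, and the 7 listed summed to 85.4 CPM in library 2 and 223 CPM in library 1. In CD8 T cells with Pdcd1 the same 4 of 6 were lower, with sums of 158 CPM in library 2 and 283 CPM in library 1, and in CD4 T cells 3 of 3 were, with sums of 329 CPM in library 2 and 720 CPM in library 1. CD8 T cells without Pdcd1 had 3 of 5 lower, the C1q genes, with sums of 229.5 CPM in library 2 and 345 CPM in library 1. Regulatory T cells had 3 of 4 lower, with sums of 486 CPM in library 2 and 604 CPM in library 1. Other T cells had 2 of 3 lower, C1qa and C1qb, with sums of 356 CPM in library 2 and 407 CPM in library 1. In these classes 2.36% to 4.11% of all genes were lower. In cells with both Cd3 and NK markers the C1q genes were lower and S100a8 and S100a9 higher. There S100a8 stood at 11.6 CPM in library 2 and 2.19 CPM in library 1, and 2.59% of all genes were higher and 2.49% lower.

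Genes known to respond to tissue handling, such as Fos and Hspa1a, were also compared, and their part in the ratios was not tested. In NK cells 1 of 10 was higher and 0 were lower, where 1.88% of all genes were higher and 2.88% lower. CD8 T cells with Pdcd1 had 0 of 10 higher and 2 lower, where 3.11% of all genes were higher and 2.88% lower. CD8 T cells without Pdcd1 had 0 higher and 2 of 10 lower, Hspa1a and Hspa1b, where 2.54% of all genes were higher and 2.36% lower. Other T cells had 0 higher and 3 of 10 lower, Atf3, Hspa1a and Hspa1b, where 2.78% of all genes were higher and 3.24% lower. Of 9 with a ratio, CD4 T cells had 0 higher and 1 lower, where 2.85% of all genes were higher and 4.11% lower. Regulatory T cells had 2 higher and 1 lower of 9, beside 4.14% higher and 3.1% lower over all genes. Gamma-delta T cells had 1 higher and 4 lower of 9, beside 6.49% higher and 2.67% lower.

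Ifngr1 and Ifngr2, the binding and signalling chains of the receptor, were highest in different classes. Ifngr1 was highest in T and NK cells, with 1261 CPM in library 2 and 1318 CPM in library 1 in gamma-delta T cells, 869 CPM in library 2 and 742 CPM in library 1 in NK cells and 699 CPM in library 2 and 558 CPM in library 1 in CD8 T cells with Pdcd1. Macrophages had 373 CPM in library 2 and 339.7 CPM in library 1, classical monocytes 472 CPM in library 2 and 396 CPM in library 1, and non-classical monocytes, at 765 CPM in library 2 and 770.3 CPM in library 1, ranked with the T cells. Migratory DCs had 59.7 CPM in library 2 and 47.1 CPM in library 1, near the foot of the order with mast cells or basophils at 57.2 CPM in library 2 and 48.4 CPM in library 1.

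Ifngr2 was highest in macrophages and monocytes and lowest in NK cells. Macrophages had 222 CPM (209 to 236) in library 2 and 214 CPM (205 to 224) in library 1, classical monocytes 207 CPM in library 2 and 208 CPM in library 1, and migratory DCs 141 CPM in library 2 and 146 CPM in library 1. CD8 T cells with Pdcd1 had 8.496 CPM in library 2 and 9.45 CPM in library 1, and NK cells, the lowest, had 3.81 CPM (43 UMIs) in library 2 and 6.27 CPM (91 UMIs) in library 1, apart from the class above them. Over the 16 classes the Pearson correlation of log2(CPM + 1) was -0.40 between Ifngr1 and Ifngr2. It was -0.88 between Ifng and Ifngr2 and -0.89 between Tbx21 and Ifngr2, each a description over classes that share libraries and depth.

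The receptor chains were seldom seen together in NK cells and CD8 T cells. After thinning, an Ifngr1 UMI was found in 85.6% of NK cells in library 2 and 84.7% in library 1, and an Ifngr2 UMI in 0.467% in library 2 and 1.61% in library 1. Both chains were found in 0.373% (4 of 1071) of thinned NK cells in library 2 and 1.45% (18 of 1240) in library 1. The share was larger in regulatory T cells, at 6.67% in library 2 and 6.17% in library 1. Other T cells had 3.70% in library 2 and 9.35% in library 1, and gamma-delta T cells 3.39% (2 of 59) in library 2 and 11.3% (6 of 53) in library 1. Migratory DCs, at 12.3% in library 2 and 3.08% in library 1, lay in the same range. In thinned non-classical monocytes both were found in 38.6% in library 2 and 34.98% in library 1, in classical monocytes in 36.0% in library 2 and 30.5% in library 1, and in macrophages in 27.8% in library 2 and 26.7% in library 1. B cells held both chains in 6 of 32 thinned cells in library 2 and 0 of 74 in library 1, and their Ifngr2 level was 139 CPM (25 UMIs) in library 2 and 47.4 CPM (19 UMIs) in library 1, too few for a ratio. A missing UMI at this depth does not show that a cell lacks the chain.

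**Figure D4:**
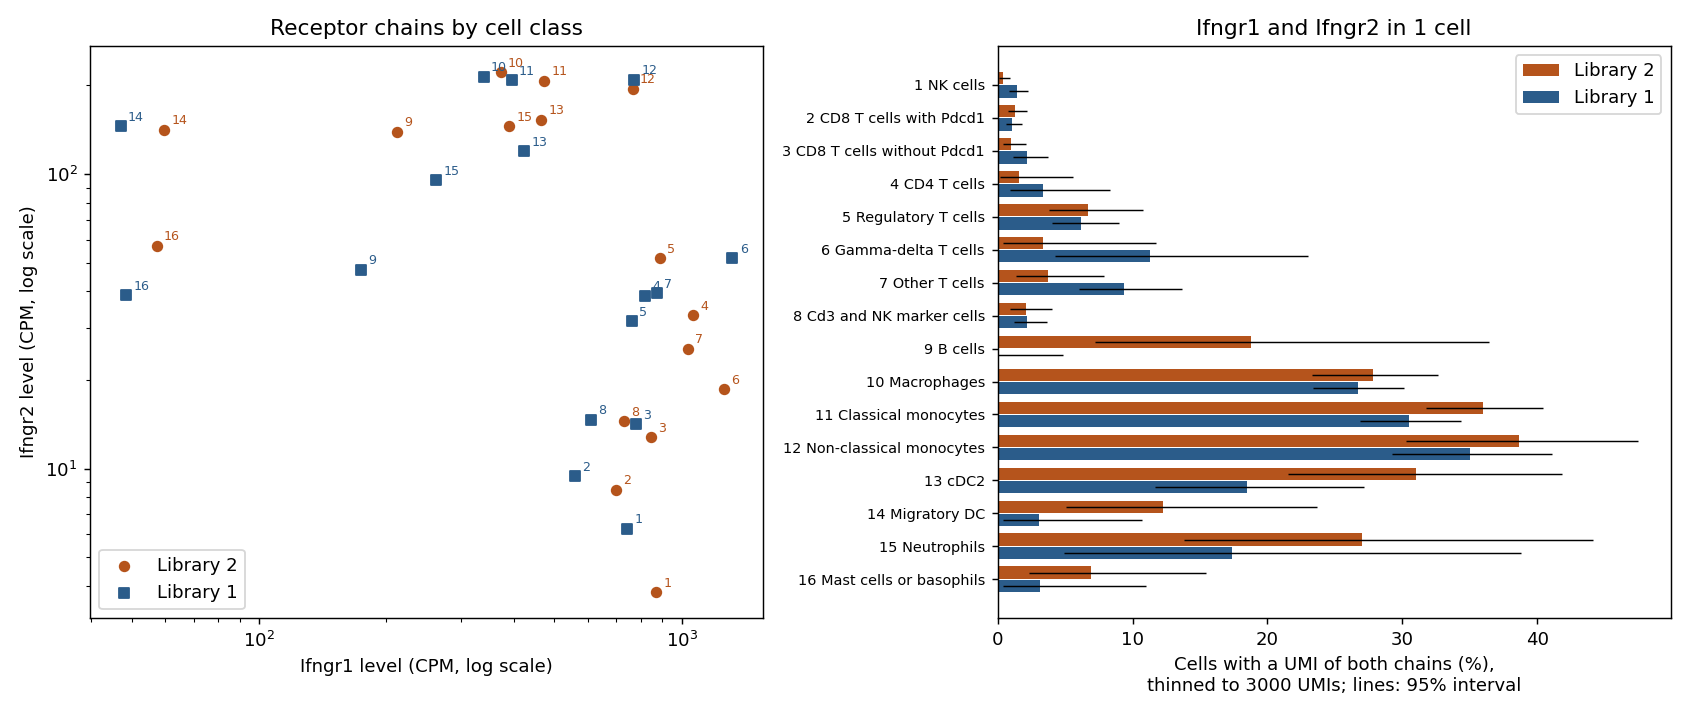
Left, level of Ifngr1 against Ifngr2 (CPM, both axes log) for the 16 classes numbered as on the right, library 2 as circles and library 1 as squares. Right, share of cells (%) with a UMI of both chains after thinning to 3000 UMIs, library 2 above library 1, lines being exact 95% intervals. NK cells (1) lie lowest for Ifngr2, at 3.81 CPM in library 2 and 6.27 CPM in library 1, and non-classical monocytes (12) have the largest share of cells with both chains.

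Between libraries, none of the 16 Ifngr1 ratios was called, and they ran from -0.06 to 0.56, with 14 above 0. The median log2 ratio over all genes was itself above 0 in most classes. It ran from -0.02 in mast cells or basophils to 0.10 in migratory DCs. In the classes not yet counted no gene of the axis was called: 0 of 3 in non-classical monocytes, where 2.67% of all genes were higher and 2.39% lower, and 0 of 4 in cDC2 cells, where 3.62% were higher and 3.03% lower. Likewise 0 of 2 were called in neutrophils, where 7.6% of all genes were higher and 5.21% lower, 0 of 2 in mast cells or basophils, where 9.49% were higher and 4.72% lower, and 0 of 2 in B cells, where 5.83% were higher and 3.03% lower. Of 14 Ifngr2 ratios 1 was called higher and 2 lower. It was lower in NK cells, at a log2 ratio of -0.71 (-1.28 to -0.18), and in other T cells, at 25.6 CPM (31 UMIs) in library 2 and 39.5 CPM (75 UMIs) in library 1, a ratio of -0.61 (-1.28 to -0.00). In regulatory T cells it was higher, at 51.8 CPM in library 2 and 31.7 CPM in library 1, a ratio of 0.71 (0.33 to 1.08), which at 3000 UMIs per cell was 0.10. Ifngr2 is a gene of high level in macrophages. Where Ifngr2 was lower, C1qa, C1qb and C1qc were lower in library 2 in NK cells, and C1qa and C1qb in other T cells. C1qa, C1qb and C1qc were also lower in regulatory T cells, where Ifngr2 was higher. Their part in these ratios was not tested.

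Among macrophages, those with a UMI of Cxcl9, a chemokine that interferon gamma induces, had less Ifngr1, at 328 CPM (306 to 351) in library 2 and 301 CPM (284 to 318) in library 1, against 424 CPM in library 2 and 373 CPM in library 1 in those at 0. Their Il12rb1 level was 11.3 CPM in library 2 and 12.7 CPM in library 1, against 3.64 CPM in library 2 and 3.71 CPM in library 1. Ifngr2 and Il18 did not stand apart between these subsets, at 226 CPM in library 2 and 212 CPM in library 1 against 218 CPM in library 2 and 216 CPM in library 1 for Ifngr2. The split was chosen after the data were seen. A split at 1 UMI can also sort cells by depth, and the part of depth was not tested.

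The list of 35 interferon gamma target genes had no common direction over the classes. In NK cells 0 of 32 with a ratio were higher and 6 lower, where 1.88% of all genes were higher and 2.88% lower, with a median log2 ratio of -0.08 beside 0.05 over all genes. The lower ones were Cxcl11, Fcgr1 and the MHC class II genes, such as Cd74 at 197 CPM in library 2 and 404 CPM in library 1 and H2-Eb1 at 56.4 CPM in library 2 and 124 CPM in library 1, in cells whose C1q level was lower as well. Among the targets in CD8 T cells with Pdcd1, 6 of 32 were higher and 1, Ciita, lower, where 3.11% of all genes were higher and 2.88% lower, with a median of 0.24 beside 0.03. Among the higher ones were Tgtp1, an immunity GTPase, at 13.3 CPM in library 2 and 6.70 CPM in library 1, and Socs1, the feedback inhibitor of JAK kinases, at 162 CPM in library 2 and 107 CPM in library 1. CD8 T cells without Pdcd1 had 3 higher and 2 lower of 32, beside 2.54% higher and 2.36% lower over all genes. CD4 T cells had 0 higher and 7 lower of 27, beside 2.85% higher and 4.11% lower, and other T cells 0 higher and 5 lower of 30, beside 2.78% higher and 3.24% lower. Cells with both Cd3 and NK markers had 5 higher and 1 lower of 32, beside 2.59% higher and 2.49% lower. Regulatory T cells, with 2 higher and 0 lower of 31, stood beside 4.14% higher and 3.1% lower over all genes. Gamma-delta T cells had 2 higher and 4 lower of 21, beside 6.49% higher and 2.67% lower.

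In macrophages, the class of the highest Ifngr2 level, 0 of 34 target genes were higher and 1 lower, Cxcl10, at 887 CPM in library 2 and 1353 CPM in library 1, where 2.62% of all genes were higher and 3.38% lower, with a median of 0.17 beside 0.02. Classical monocytes had 3 higher and 2 lower of 34, where 2.26% of all genes were higher and 3.22% lower. The higher ones were Tgtp1 and the MHC class II genes H2-Aa, at 2030.2 CPM in library 2 and 1331 CPM in library 1, and H2-Eb1. The lower ones were Nos2, the inducible nitric oxide synthase, at 8.33 CPM in library 2 and 41.0 CPM in library 1, and Cxcl9 at 359 CPM in library 2 and 570 CPM in library 1. C1qa, C1qb, C1qc, S100a9, Hspa1a and Hspa1b were lower in the same cells, with C1qa at 20.8 CPM in library 2 and 49.2 CPM in library 1, and their part in the target ratios was not tested. Non-classical monocytes had 7 higher and 0 lower of 30, where 2.67% of all genes were higher and 2.39% lower, with a median of 0.35 beside 0.02. Their Gbp2 level was 680.1 CPM in library 2 and 369 CPM in library 1, and Iigp1 stood at 99.2 CPM in library 2 and 31.9 CPM in library 1. S100a8, a transcript of neutrophils, was also higher in these monocytes, at 106 CPM in library 2 and 5.32 CPM in library 1. S100a9 and Apoe were higher as well, while C1qa, Hspa1a and Hspa1b were lower. The part of these genes in the target ratios was not tested.

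In migratory DCs 0 of 27 target genes were higher and 8 lower in library 2, where 6.97% of all genes were higher and 4.37% lower, with a median of -0.17 beside 0.10 over all genes. Cxcl9 stood at 366 CPM in library 2 and 694 CPM in library 1, Cxcl10 at 147 CPM in library 2 and 303 CPM in library 1, and Cxcl11 at 14.3 CPM in library 2 and 50.4 CPM in library 1. C1qa, C1qb and C1qc were higher in the same cells, with C1qa at 227 CPM in library 2 and 104 CPM in library 1. Apoe was lower, at 64.9 CPM in library 2 and 147 CPM in library 1, as were the handling genes Fosb and Atf3. The part of these genes in the target ratios was not tested.

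**Figure D5:**
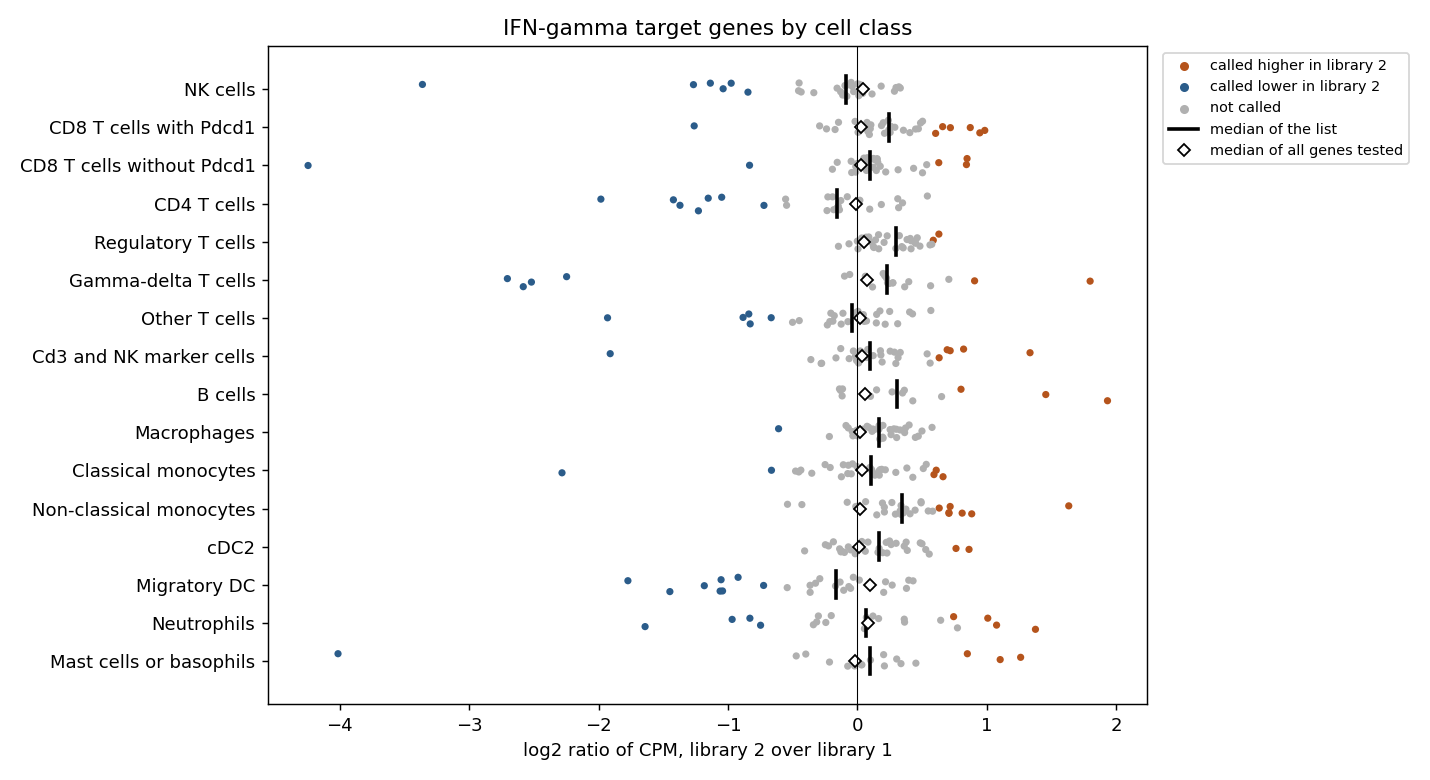
Log2 ratio of CPM, library 2 over library 1, of the interferon gamma target genes with at least 50 UMIs in each of 16 classes, 1 point per gene, coloured by call, with the median of the list (bar) and of all genes (diamond). Non-classical monocytes have 7 genes called higher and 0 lower, and migratory DCs 0 higher and 8 lower.

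Most cytokines that are made together with interferon gamma were higher in library 2 in CD8 T cells without Pdcd1. There 5 of 7 with a ratio were higher and 0 lower, where 2.54% of all genes were higher and 2.36% lower, with a median of 0.94 beside 0.03 over all genes. Ccl3, a chemokine of activated lymphocytes, stood at 188 CPM in library 2 and 74.1 CPM in library 1, Lta, the lymphotoxin gene, at 19.1 CPM in library 2 and 8.26 CPM in library 1, and Xcl1 at 231 CPM in library 2 and 144 CPM in library 1. Ifng in the same cells had a log2 ratio of 0.49 (0.37 to 0.61), not called, and Il18 was the 1 of 9 genes of the axis that was higher, where 2.54% of all genes were. The C1q genes, Hspa1a and Hspa1b were lower in these cells, as given above, and their part in the cytokine ratios was not tested. In CD8 T cells with Pdcd1 2 of 8 were higher and 0 lower, where 3.11% of all genes were higher and 2.88% lower, Csf2 at 29.8 CPM in library 2 and 9.38 CPM in library 1 and Il2 at 6.68 CPM in library 2 and 2.54 CPM in library 1, and in NK cells 1 of 8 was higher, where 1.88% of all genes were, and 0 lower, where 2.88% were, Il2 at 3.63 CPM in library 2 and 1.10 CPM in library 1. CD4 T cells had 3 of 5 higher and 1 lower, where 2.85% of all genes were higher and 4.11% lower, with Ccl4, a chemokine of activated lymphocytes, at 757 CPM in library 2 and 269 CPM in library 1 and Ccl5 at 695 CPM in library 2 and 1442 CPM in library 1. Other T cells had 2 of 5 higher, Ccl3 and Ccl4, and 0 lower, where 2.78% of all genes were higher and 3.24% lower. Ccl3 was not confined to lymphocytes. It stood at 2832 CPM in library 2 and 5.81 CPM in library 1 in mast cells or basophils. It was lower in library 2 in neutrophils, at 1200 CPM against 2610 CPM, and in classical monocytes, at 67.1 CPM against 158 CPM. The part of these cells in the lymphocyte ratios was not tested. On a list of feedback regulators of the axis, 0 of 8 were called in NK cells and 1 of 8 in CD8 T cells with Pdcd1, Socs1. The shares of all genes called in these classes are those just given.

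Genes whose levels over the 16 classes were most like those of the axis were ranked by Pearson correlation of log2(CPM + 1) among 13147 genes. Ifng was most like Thy1 (0.99), Sh2d2a (0.98) and Trbc1 (0.98). Tbx21 was most like Gm20069 (0.98), Nkg7 (0.98) and Ctsw (0.97), and Il18r1 like Prkcq (0.98) and Slc35f2 (0.97). Il12b was most like Apol7c (0.98), H2-M2 (0.97) and Npr1 (0.97), and Il18 like Slc31a1 (0.95), Lrrc25 (0.95) and Zeb2 (0.94). Ifngr2 was most like Arl8a (0.95), Spi1 (0.95) and Arhgef10l (0.93). Ifngr1 was most like Trip11 (0.95), Il12rb1 like Pld3 (0.97), Il12rb2 like Serpinb6b (0.93) and Stat4 like Gm3940 (0.96). Within the axis, Ifng was most like Tbx21 (0.93) and Il18r1 (0.92).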

How the data were processed

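UMI counts per gene and cell barcode were deposited by the authors as 1 joined matrix, made with Cell Ranger 6.1.2 on mm10, per the submitters' processing notes. The gene annotation was not given in those sources, and whether reads were subsampled on joining is not stated. Counts by library (the barcode ending) were computed with Python 3.11.15, numpy 2.4.6, pandas 2.3.3 and scipy 1.17.1, and figures were drawn with matplotlib 3.10.9. A barcode was kept when it had 500 or more genes and no more than 10% of its UMIs were mitochondrial. Classes were gated by marker UMIs, barcodes passing the gates of more than 1 lineage were set aside as mixed, and no doublet caller was run. The planned Lyz2 gate found too few monocytes, so gates on other monocyte genes were added after the data were seen, as were the splits within classes and the alternatives on single cells and mixed barcodes. Comparisons were limited to classes of which library 2 and library 1 each held 50 cells or more. UMIs were summed by class and library, and ratios of CPM, with 0.5 UMI added to each sum, were given for genes with at least 50 UMIs in both together. Depth was 59459790 UMIs in library 2 and 86227008 UMIs in library 1.

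With 1 library of each kind no test was possible, and no p-value is given. Intervals are exact 95% ones, Poisson for levels, Clopper-Pearson for shares and binomial for ratios, and a count of 0 was read as allowing up to 3 UMIs. For shares across depths each cell was thinned to 3000 UMIs and shallower cells were left out. The script for ratios was tested on simulated data. The 10 genes and the lists were chosen with earlier results of these data known. Named were all 10 genes in every class, and, per list and class, from among up to 3 of the largest and 3 of the smallest called ratios and the gene of the highest level. Marker genes of the splits, the partner chains and other genes named beside these were chosen after their values were seen. Likeness used genes with at least 100 UMIs, and up to 3 of the most alike were named. Some items are not reported here. The alternatives were stricter filters of cells (1000 genes, 5% mitochondrial UMIs), stricter gates, thinning, no cycling cells, no cells over 2 times the class median depth, a minimum of 10 UMIs, ratios centred on their median and totals without ribosomal and mitochondrial genes. Gene coordinates came from GENCODE M21 and promoters from RefSeq. All 10 genes had coordinates, and promoters were read for Ifng and Il12b.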

Additional observations from a re-analysis of the deposited data

How the results depend on the processing

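Of the 13 calls among the 10 genes, 2 held under every alternative run on them. Ifng in gamma-delta T cells was given under 8 alternatives, with log2 ratios between 1.21 and 2.70. Ifng in other T cells was given under 9, with ratios between 0.65 and 0.98. The other 11 were lost under at least 1 alternative, and 10 ratios that were not called passed under some alternative. The Ifng log2 ratio in NK cells was 1.06, and it was 0.60 with cells thinned to 3000 UMIs, 0.38 without cycling cells, 0.37 without cells over 2 times the class median depth and 0.44 without the cell of most Ifng UMIs in each library. The last 3 of these settings leave out the barcode with 906 Ifng UMIs. In CD8 T cells with Pdcd1 the Ifng ratio was 0.23 after thinning, against 0.18. The Il12b ratio in migratory DCs was reversed, at -0.22, with mixed barcodes that pass the gate. Among all genes in NK cells 207 were higher, and 324 with a minimum of 10 UMIs, while 317 were lower, and 180 after thinning. In CD8 T cells with Pdcd1 342 were higher, and 226 after thinning, while 316 were lower, and 209 after thinning and 486 with a minimum of 10 UMIs. For the counts after thinning the cause was not tested. No paired analysis was possible because each library is a single sample and no test was made. Of 805 log2 ratios of the 10 genes recomputed, 774 stayed within the 95% interval of the ratio as reported, 30 moved out of it and 1 was reversed. Depth limits the Ifngr2 ratios in lymphocytes, the Ifng level in gamma-delta T cells of library 1 and the shares of cells with 2 chains.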
